A study of Mus musculus with 26 samples.

Results

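Open promoters without CTCF are the accessible regions of mouse embryonic stem cells (mESC) that lie at a transcription start and carry no CTCF peak. They were defined as distinct regions of the merged M-ATAC peak list that overlap 1 kb on either side of a GENCODE M21 transcription start and overlap no region of the merged CTCF M-ChIP list. Of 66726 M-ATAC regions, 17354 met this rule. A further 2736 regions at starts overlapped CTCF, 40913 regions lay away from starts without CTCF, and 5723 lay away from starts with CTCF.

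M-ATAC is ATAC-seq with a Tn5 transposase that carries methylated adaptors, followed by bisulfite conversion, so that one read reports both an open site and the methylation of its cytosines. The labels give KH2, a mouse embryonic stem cell line grown on irradiated feeder cells that were removed by pre-plating, for all samples. The peak lists compared here come from M-ATAC (4 samples), the aliquots of M-ATAC taken before conversion (M-ATAC-NC, 2 samples), ATAC with Nextera adaptors (2 samples), and CTCF M-ChIP, its unconverted aliquots (CTCF M-ChIP-NC) and CTCF ChIP with Nextera adaptors (2 samples each). Klf4-/- cells that re-expressed WT KLF4, Klf4-/- cells that re-expressed the R462A mutant and Klf4-/- cells with no KLF4 gave 2 lists each. By the study's methods, Klf4 was brought back by lentivirus into knockout mESC, selected with puromycin and induced with doxycycline, and the methods do not name the parent line as KH2. In addition, RNA-seq of WT mESC (2 samples) was deposited as merged TPM. The labels do not say whether samples of a group came from separate cultures, so that the spread between them may be technical.

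Most mouse promoters lie in CpG islands, stretches that are rich in G, C and the CpG dinucleotide and that stay free of DNA methylation in nearly all cells. CpG-poor promoters and the promoters of germline genes are the best-known exceptions, the latter being methylated in cells outside the germ line. CTCF is a zinc finger protein that binds insulators and the anchors of chromatin loops, and most promoters open without it.

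Sequences are shown first for methylated promoters and for the promoters of highest fold enrichment. Each line gives 120 bases of GRCm38 (mm10) around the strongest summit of a region, written 5′ to 3′ along the strand of the gene with the nearest start, with every CpG in capitals. Windows that overlap an annotated UTR (the second Sfi1 region and Duxf3) are not printed. The first group holds methylated regions: Gm37618 (chr1:33616875-33616994, minus strand), AW822073 (chr10:58224365-58224484, minus strand), Sfi1 (chr11:3142485-3142604, minus strand), and the germline promoters Asz1 (chr6:18109092-18109211, minus strand) and Btbd18 (chr2:84658946-84659065, plus strand), which were chosen after their values were seen.
Gm37618: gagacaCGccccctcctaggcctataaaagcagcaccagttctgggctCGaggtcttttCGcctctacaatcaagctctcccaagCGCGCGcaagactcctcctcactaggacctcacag
AW822073: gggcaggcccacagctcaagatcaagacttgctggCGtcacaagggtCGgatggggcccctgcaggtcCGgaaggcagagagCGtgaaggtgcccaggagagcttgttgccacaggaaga
Sfi1: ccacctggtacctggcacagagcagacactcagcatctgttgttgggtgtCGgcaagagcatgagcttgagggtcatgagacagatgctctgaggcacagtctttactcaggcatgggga
Asz1: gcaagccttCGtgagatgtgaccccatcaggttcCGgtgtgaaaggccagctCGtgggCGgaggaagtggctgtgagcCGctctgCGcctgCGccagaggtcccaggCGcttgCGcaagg
Btbd18: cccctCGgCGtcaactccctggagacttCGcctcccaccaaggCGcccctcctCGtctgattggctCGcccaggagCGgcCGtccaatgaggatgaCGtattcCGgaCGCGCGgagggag

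The second group holds the 3 promoters of highest fold enrichment: Gm24187 (chr13:9834311-9834430, minus strand), Zfp959 (chr17:55891947-55892066, plus strand) and Gm14443 (chr2:175175951-175176070, minus strand). Methylation of these regions was 1.09%, 0.432% and 0.760%. That is low, but above the median of 0.318% over open promoters without CTCF with 5 or more measured cytosines.
Gm24187: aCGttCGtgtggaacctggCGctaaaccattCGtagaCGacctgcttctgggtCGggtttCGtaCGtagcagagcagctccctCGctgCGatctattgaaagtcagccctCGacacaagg
Zfp959: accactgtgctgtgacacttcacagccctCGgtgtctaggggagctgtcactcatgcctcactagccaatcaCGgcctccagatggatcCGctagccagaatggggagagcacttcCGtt
Gm14443: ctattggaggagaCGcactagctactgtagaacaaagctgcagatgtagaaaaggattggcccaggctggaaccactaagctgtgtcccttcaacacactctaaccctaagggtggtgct

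The number of CpGs in the 8 windows ran from 1 to 13. The window of Btbd18 held 13 CpGs with 50.2% of 209 reads methylated, and that of Asz1 held 9 CpGs with 65.4% of 52 reads methylated. The window of Gm24187 held 11 CpGs with 1.23% of 569 reads methylated. Gm14443 and Sfi1 each had 1 CpG in the window, methylated in 0.990% of 101 reads and in 83.3% of 36 reads.

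The open promoters without CTCF were wide and strong for M-ATAC regions. Their median width was 409 bp (quartiles 251 and 592 bp), against 256 bp for distal regions without CTCF and 413 bp for CTCF-bound promoters. The median fold enrichment over local background in the merged list was 8.57 (quartiles 5.52 and 13.0), against 6.66 at distal regions without CTCF and 8.91 at CTCF-bound promoters. More than 1 summit was called in 28.0% of the open promoters without CTCF, in 10.8% of the distal regions without CTCF and in 31.1% of the CTCF-bound promoters.

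The strongest summit lay just upstream of the start, at a median of -30 bp along transcription (quartiles -112 and 42 bp), and within 100 bp of a start for 9063 regions (52.2%). In 2903 regions (16.7%) it lay over 500 bp from any start. The 353 regions just inside the limit, 900 to 1000 bp from a start, had a median fold of 6.13, a median of 3 CpGs in the 200 bp around the summit and a methylation of 4.09%. The 360 regions without CTCF just outside it, 1000 to 1100 bp away, had 6.26, 3 CpGs and 3.88%. Regions without CTCF that held a start within them (11876 regions) had a median fold of 10.3, 16 CpGs and a methylation of 0.486%.

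The gene with the nearest start was protein-coding for 14491 of the regions (83.5%), a lincRNA for 914 (5.27%), an antisense transcript for 528 (3.04%) and a processed pseudogene for 344 (1.98%). Protein-coding genes on both strands had a start within 1 kb of the same region in 1270 cases (7.32%, 95% Wilson interval 6.94 to 7.72%), against 5.04% (4.29 to 5.93%) of CTCF-bound promoters. Counted by gene, 12739 of 21951 protein-coding genes had an open promoter without CTCF at one of their starts (58.0%). Of these, 921 also had a CTCF-bound one at another or the same start, 1485 genes had a CTCF-bound one alone, and 7727 had no open region.

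Each sample's own list was then searched for these regions. The rule used the merged list, which was made from M-ATAC samples, so that recovery in M-ATAC lists is not separate from it. A peak was found at 55.9%, 60.9%, 56.4% and 55.0% of the open promoters without CTCF in M-ATAC 1 to 4, at 63.3% and 69.9% in M-ATAC-NC and at 56.8% and 65.9% in ATAC. At these regions both M-ATAC-NC samples were above all M-ATAC samples, whereas the ATAC samples overlapped the M-ATAC samples. Over all merged regions the M-ATAC and M-ATAC-NC samples overlapped. There the shares were 38.4%, 43.0%, 43.0% and 41.1% in M-ATAC 1 to 4, 42.9% and 48.4% in M-ATAC-NC and 35.2% and 43.8% in ATAC. The difference between M-ATAC (57.0% ± 2.64, SD, n = 4) and M-ATAC-NC (66.6% ± 4.65, SD, n = 2) was -9.55 percentage points (exact permutation test, two-sided; p = 0.133, which is the lowest value possible with 4 and 2 samples). The adjusted p over the 8 comparisons made was 0.356 (Benjamini-Hochberg). The difference from ATAC (61.4% ± 6.42, SD, n = 2) was -4.34 points (exact permutation test, p = 0.267, adjusted p = 0.381), and without ATAC 2 it was 0.199 points. The M-ATAC-NC samples are aliquots and not independent of M-ATAC, and the merged list was made from M-ATAC samples.

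**Figure D1:**
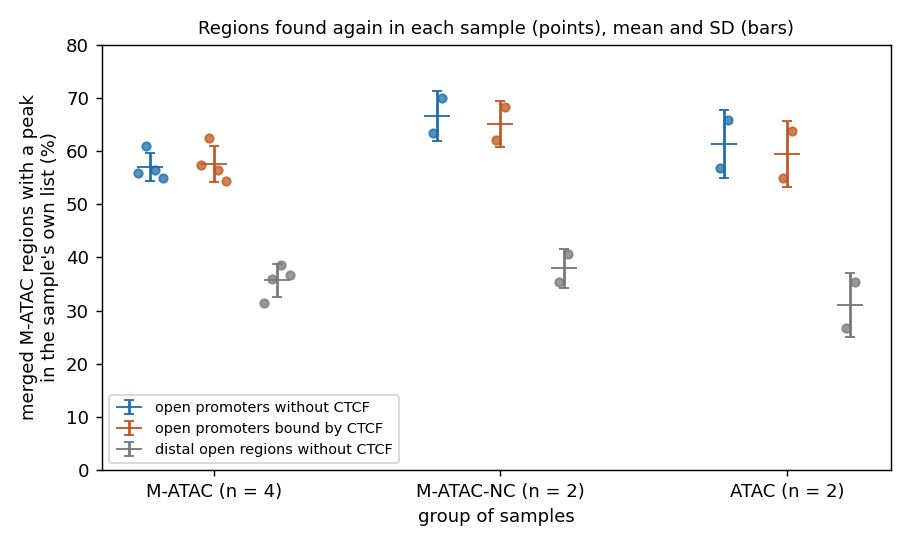
Share of merged M-ATAC regions with a peak in each sample's own list (vertical axis, %) for 3 kinds of region, by group of samples. Points are samples, horizontal marks are means and bars are SD. Open promoters without CTCF lie between 55.0% and 69.9% and distal regions without CTCF between 26.8% and 40.6%.

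Open promoters without CTCF were found again more often than distal open regions without CTCF in 8 of 8 samples, with 31.4%, 36.0%, 38.6% and 36.7% of the distal regions found in M-ATAC 1 to 4, 35.4% and 40.6% in M-ATAC-NC, and 26.8% and 35.3% in ATAC. The mean difference was 25.4 percentage points (exact sign-flip permutation test over the 8 samples, two-sided, p = 0.00781, adjusted p = 0.0312). As M-ATAC-NC are aliquots of M-ATAC, these 8 samples are not all independent. The regions come from a merged list of M-ATAC samples, so that the M-ATAC lists are also not separate from the rule. Both limits hold for the sign-flip tests below as well. With the 6 M-ATAC and ATAC samples the mean difference was 24.4 points, in the same direction in each, and the call was lost after adjustment (exact sign-flip permutation test, p = 0.0312, adjusted p = 0.125). The difference was 24.5 and 24.9 points in M-ATAC 1 and 2, 17.8 and 18.3 points in M-ATAC 3 and 4, and between 27.9 and 30.6 points in the 4 unconverted lists. Distal regions were narrower and weaker in the merged list, as given above, and the part of width and strength in this difference was not tested.

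Against CTCF-bound promoters the difference was small and of either sign. It was -1.36, -1.53, -0.0711 and 0.649 points in M-ATAC 1 to 4, 1.34 and 1.70 in M-ATAC-NC and 1.83 and 2.14 in ATAC, a mean of 0.586 points (exact sign-flip permutation test, p = 0.266, adjusted p = 0.381). Its sign depended on which starts were used: with the starts of protein-coding transcripts alone it was -2.74 points and with gene starts alone -1.68 points (exact sign-flip permutation test, p = 0.00781 for both). Where a peak was found, its median fold was higher at open promoters without CTCF than at CTCF-bound ones in 8 of 8 samples, for example 8.33 against 8.06 in M-ATAC 1 and 5.80 against 5.70 in ATAC 1. The mean difference was 0.200 (exact sign-flip permutation test, p = 0.00781, adjusted p = 0.0312), and with the 6 M-ATAC and ATAC samples it was 0.211 with the call lost after adjustment (exact sign-flip permutation test, p = 0.0312, adjusted p = 0.125). This is the opposite order to the medians over all regions of the merged list. It was 0.0920 with all 7 CTCF lists removed and 0.821 when at least 50% of a region had to lie in the window, or in a CTCF region to count as bound.

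How often a promoter was found went with its other features. A peak was present in all 4 M-ATAC samples for 6912 of the open promoters without CTCF (39.8%), against a background of 23.1% of all merged regions, and 4079 (23.5%) had no peak in any single M-ATAC list. Those found in 4 samples had a median merged fold of 13.9, a median of 15 CpGs, a methylation of 0.40% and a median TPM of 16.6 at the nearest gene. Those found in none had 4.58, 8 CpGs, 2.68% and 3.28 TPM, and the regions found in 1, 2 or 3 samples lay between these values. All 8 accessibility samples had a peak at 5982 of the open promoters without CTCF (34.5%). The shares of all merged regions to set beside the 34.5% and the 23.5% are not given here. The fold is a measure of the same reads as the peak calls, so that these values are a description. In bulk samples, fewer cells of a type and less RNA per cell cannot be told apart.

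CpG number also went with recovery. Of the 3591 open promoters without CTCF that had 4 or fewer CpGs in the 200 bp around the summit, 34.0%, 40.2%, 40.3% and 40% had a peak in M-ATAC 1 to 4. Of the 4418 with 20 or more CpGs, 64.5%, 69.2%, 61.2% and 57.9% did. The shares were highest at 15 to 19 CpGs in M-ATAC (69.2% ± 3.47, SD, n = 4), M-ATAC-NC (79.6% ± 4.02, SD, n = 2) and ATAC (74.6% ± 6.39, SD, n = 2). At 20 or more CpGs they were 63.2% ± 4.86, 73.1% ± 4.66 and 73.9% ± 6.59 in the same groups, and this step was not tested.

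CTCF peaks were also counted in lists that the rule did not use. Of these, CTCF M-ChIP-NC are aliquots of CTCF M-ChIP taken before conversion. They are not independent of the merged list in the rule, so that their low shares are no separate check. CTCF ChIP 1 and 2 had peaks at 1.94% and 5.13% of the open promoters without CTCF and at 94.9% and 99.5% of the CTCF-bound ones. CTCF M-ChIP-NC 1 and 2 had peaks at 0.184% and 0.513% of the former and at 67.9% and 76.0% of the latter. The 2 groups did not overlap at the open promoters without CTCF, and the difference between M-ChIP-NC and ChIP was -3.19 points (exact permutation test, p = 0.333, the smallest that 2 against 2 allows, adjusted p = 0.381). Over all merged regions they did not overlap either, with 9.05% and 10.7% in CTCF M-ChIP-NC and 13.1% and 15.0% in CTCF ChIP. The CTCF ChIP lists were also longer, with 40046 and 49633 regions against 22261 and 30470. Both CTCF ChIP samples had a peak at 310 of the open promoters without CTCF (1.79%), against 13.0% of all merged regions. These peaks were weaker than those at CTCF-bound promoters, with a median fold of 5.71 against 12.2 in CTCF ChIP 1 and of 6.55 against 15.6 in CTCF ChIP 2.

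The letters of the windows were different from those of distal regions. The 200 bp around the summit had a median GC content of 62.5%, a median of 13 CpGs and an observed-to-expected CpG ratio of 0.685 at open promoters without CTCF. CTCF-bound promoters had 62.0%, 12 and 0.637, and distal regions without CTCF had 50%, 2 and 0.168. In all, 25.5% of the open promoters without CTCF had 20 or more CpGs in the window and 7.35% had 0 or 1.

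On both strands of these windows 13 short motifs were searched, and shares are given beside those of all 66726 M-ATAC windows of the same length. The GC box bound by Sp1 and related factors (GGGCGG) was present in 51.7% of the open promoters without CTCF, in 43.9% of CTCF-bound promoters and in 23.2% of all windows. The CCAAT box bound by NF-Y (CCAAT) was present in 31.7%, 23.6% and 26.8%. The ETS motif CCGGAAG was present in 10.5%, 10.1% and 4.54%, the NRF1 motif in 4.8%, 4.64% and 1.62%, and the YY1 motif ATGGCGG in 3.88%, 4.06% and 1.75%. The cAMP response element TGACGTCA was present in 2.35% of the open promoters without CTCF (2.13 to 2.58%), against 1.32% of CTCF-bound ones (0.952 to 1.82%) and 0.896% of all windows.

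Some motifs were rarer there than in all windows. TATAAA, the core of the TATA box, was present in 3.07% against 4.99% of all windows, and the octamer ATGCAAAT, bound by OCT4 and related POU factors, in 1.98% against 3.51%. The core of the CTCF motif was present in 7.87% of the open promoters without CTCF, in 36.2% of the CTCF-bound ones and in 10.2% of all windows. Other motifs were present more often than in all windows: the E-box CACGTG (6.18% against 3.78%), the KLF core GGGNGTGG (18.8% against 17.2%), the ZNF143 letters ACTACAA (2.83% against 2.13%) and the Kaiso palindrome (0.559% against 0.159%). These are counts of letters, which also depend on base composition, and not of bound sites.

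Promoters with some of these letters stood at more highly expressed genes. The median TPM was 33.6 for the 97 open promoters without CTCF with the Kaiso palindrome, 23.6 for the 673 with the YY1 motif, 23.4 for the 833 with the NRF1 motif and 22.4 for the 1822 with the ETS motif. Without each motif the medians lay between 8.02 and 9.16. The 532 with TATAAA had a median of 3.76 TPM and the 343 with the octamer 3.28 TPM. CpG number moved with the motifs, since the median was 21 CpGs with the NRF1 motif, 17 with the ETS motif, 6 with TATAAA and 4 with the octamer, and its part in the TPM values was not tested.

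Open promoters without CTCF were almost free of methylation. Of their regions 16503 (95.1%) had a cytosine with 5 or more reads, and 60241 of 9738838 reads over 690171 cytosines were methylated, or 0.619% (95% Wilson interval 0.614 to 0.624%). No methylated read was seen at 93.7% of the cytosines, 98.6% were below 20%, 9759 were at 20 to 80% and 182 were above 80%. The median was 10 reads per cytosine, so that a single value is coarse. Methylation values come from merged M-ATAC reads, so that they have no replicate SD and the intervals cover counting error alone. Bisulfite sequencing cannot tell 5-hydroxymethylcytosine from 5-methylcytosine, and unconverted cytosines are read as methylated.

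CTCF-bound promoters were at 0.725% (0.712 to 0.738%) and distal regions without CTCF at 8.30% (8.26 to 8.34%). The distal value was above that of open promoters without CTCF on 20 of 20 chromosomes, by 4.17 to 9.76 points. CTCF-bound promoters were above on 14 of 20 chromosomes, with differences from -0.0544 to 0.367 points. Methylation of open promoters without CTCF ranged from 0.520% to 0.820% between chromosomes. With 10 or more reads per cytosine the value was 0.443% and with 1 or more 0.735%, so that more deeply read cytosines were less methylated.

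Methylation differed with distance from the start. Within 100 bp of a start, 27276 of 5902143 reads were methylated (0.462%, 0.457 to 0.468%). Over 500 bp from a start, 10361 of 497386 reads were (2.08%, 2.04 to 2.12%), and the second value was higher on 20 of 20 chromosomes. On the upstream side methylation was 0.540% beyond 100 and up to 250 bp, 0.791% up to 500 bp, 1.46% up to 750 bp and 2.54% up to 1000 bp. On the downstream side it was 0.723%, 1.02%, 1.81% and 2.81% at the same distances. The median depth was 11 reads per cytosine within 100 bp and 9 reads over 500 bp from a start.

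**Figure D2:**
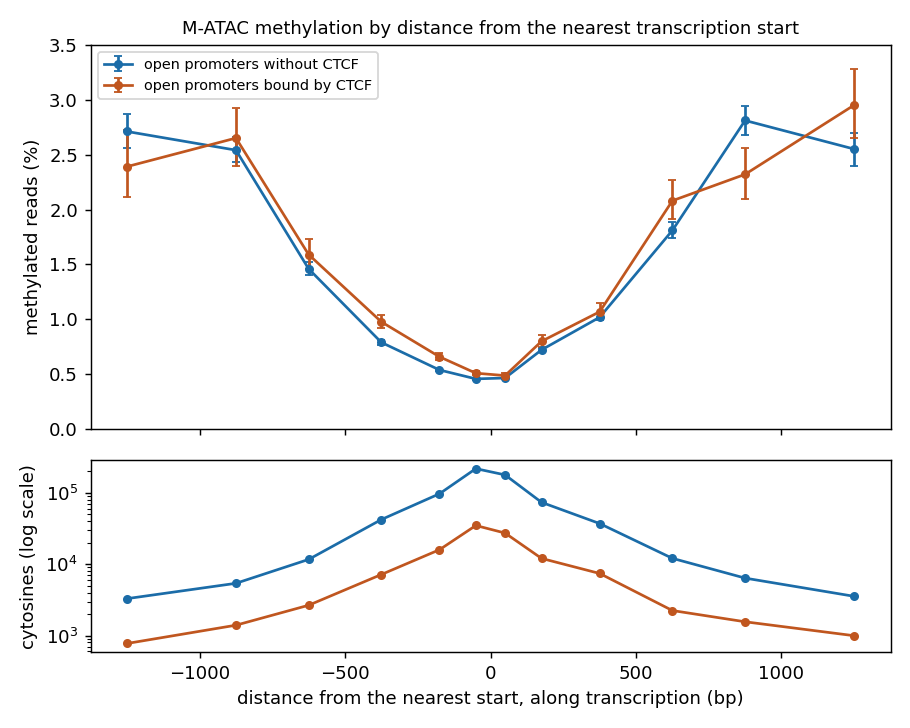
Share of methylated reads (upper panel, %) and number of cytosines (lower panel, log scale) by distance from the nearest transcription start along transcription (bp), for open promoters without CTCF and CTCF-bound ones. Bars are 95% Wilson intervals. Both curves are lowest in the 100 bp on either side of the start, at 0.459% and 0.467% without CTCF.

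Methylation also differed with CpG number. Methylation of open promoters without CTCF was 8.68% with 0 or 1 CpGs in the window, 5.47% with 2 to 4, 1.39% with 5 to 9, 0.532% with 10 to 14, 0.383% with 15 to 19 and 0.330% with 20 or more. Distal regions without CTCF had more methylation in each of these classes, at 12.6%, 10.7%, 7.57%, 3.64%, 1.15% and 0.700%. They were higher on 18 to 20 of 20 chromosomes in each class. The intervals were far apart at 5 to 9 CpGs, with 1.37 to 1.42% at the promoters and 7.50 to 7.64% at the distal regions.

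**Figure D3:**
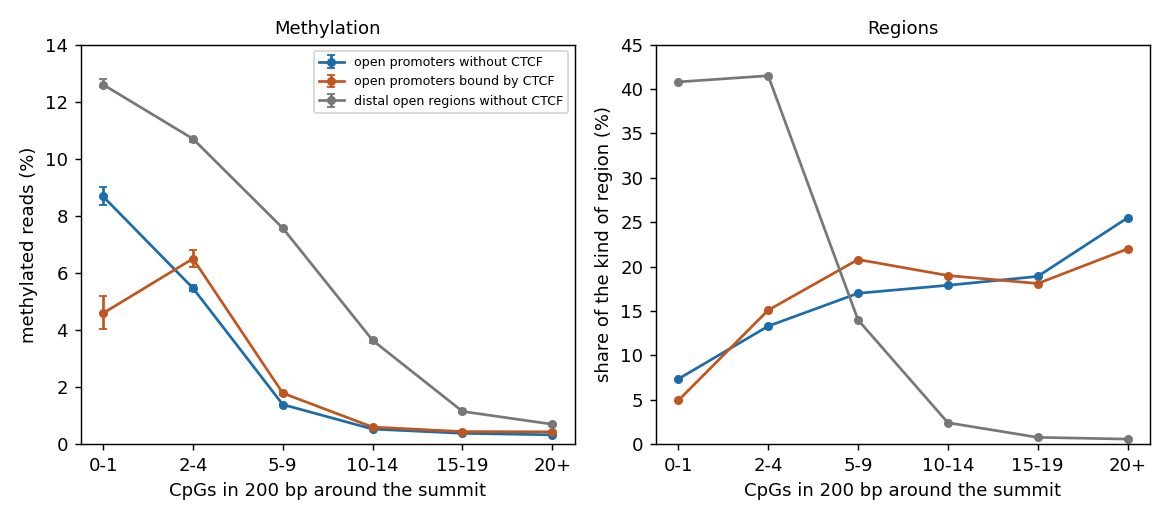
Share of methylated reads (left, %, with 95% Wilson intervals) and share of each kind of region (right, %) by number of CpGs in the 200 bp around the summit. Distal regions without CTCF lie above open promoters without CTCF in all 6 classes, from 12.6% against 8.68% to 0.700% against 0.330%.

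Region by region, 14281 open promoters without CTCF had 5 or more measured cytosines. Their median methylation was 0.318% (quartiles 0.0865 and 1.07%), and 3266 of them (22.9%) had no methylated read. Methylation of 20% or more was found in 369 (2.58%, 2.34 to 2.86%), against a background of 9.64% of all merged regions with 5 cytosines and 19% of the distal ones without CTCF. It reached 50% in 43 regions and passed 80% in 2, Gm37618 and AW822073. Regions of 50% or more had a median of 4 CpGs in the window, against 16 in those with no methylated read. Just 2 regions with 20 or more CpGs had methylation of 20% or more, Btbd18 (50.9%, 45 to 56.7%) and Gm9857 (30.8%, 22.2 to 40.9%), which were named after their values were seen.

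The 5 regions with the highest lower bound of the methylation interval all held words that occur elsewhere in the genome. AW822073 (chr10:58224401-58224703, in an exon) was at 80.2% of 96 reads, and 69.6% of its 31-base words were found at more than 1 place of GRCm38. Gm37618 (chr1:33616736-33617073, in an exon and in an intron of Prim2, a DNA primase subunit) was at 80.5% of 87 reads, with 77.3% of its words repeated. Duxf3 (chr10:58231811-58232228, in an exon), which belongs to the Dux family of double homeobox genes, was at 69.9% of 166 reads with 60.8% repeated. The 2 regions at Sfi1, a centrosome protein gene, were at 77.0% of 135 reads (chr11:3142408-3142652) and 68.8% of 430 reads (chr11:3134906-3135778), with 11.2% and 14.2% of words repeated. The part of reads from such copies in these values was not tested.

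Support for these 5 regions in single samples was uneven. AW822073 and the first Sfi1 region had no peak in any of the 8 accessibility lists. Gm37618 had a fold of 5.36, 4.37 and 4.55 in M-ATAC 1, 2 and 3 and no peak in M-ATAC 4 or the unconverted lists. Duxf3 had 5.08, 8.09 and 7.24 in M-ATAC 1, 3 and 4 and no peak in the other lists. The second Sfi1 region had a peak in 6 of 8 lists, with folds from 2.44 to 5.17. No repeated word was found in 30 of the 43 regions at 50% or more and in 270 of the 326 at 20 to below 50%, and the same share over all open promoters without CTCF was not computed.

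Genes at methylated open promoters had lower TPM values. Each region was given the merged TPM of the gene with the nearest start. The median TPM was 13.6 (quartiles 2.78 and 41.2) at regions with no methylated read and 17.2 (4.62 and 46.5) at those above 0 and up to 1%. It was 2.58 (0.230 and 13.9) above 1 and up to 5%, 1.41 (0.0600 and 10.4) above 5 and below 20%, 0.630 (0.020 and 10.4) at 20 to below 50% and 1.65 (0.0600 and 10.2) at 50% and above, where 34 regions had a TPM. Genes of at least 1 TPM made up 82.6% (81.2 to 83.8%), 87.2%, 60.8%, 53.8%, 47.8% (42.1 to 53.5%) and 52.9% (36.7 to 68.5%) of these classes. The classes also differed in gene type, since 90.0% of the nearest genes were protein-coding in the lowest class, 64.1% at 20 to below 50% and 58.1% at 50% and above. The quartiles of neighbouring classes overlapped. Depth and fold differed between the classes as well. Regions with no methylated read had a median of 202 reads, and those above 0 and up to 1% had 841. The medians were 49 reads at 20 to below 50% and 61 reads at 50% and above. The median fold of these classes, in the same order, was 6.66, 12.1, 7.00 and 6.67. The part of depth and fold in the TPM values was not tested.

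**Figure D4:**
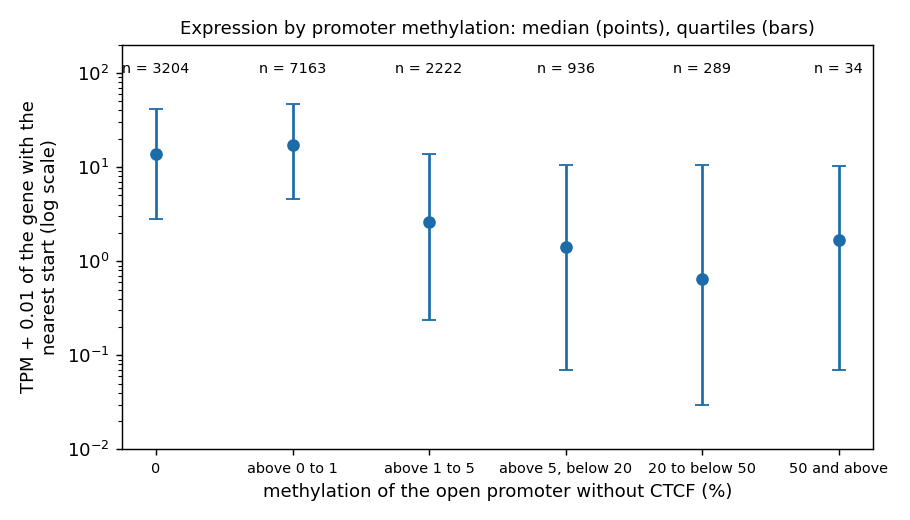
TPM of the gene with the nearest start (log scale, 0.01 added) by methylation of the open promoter without CTCF (%). Points are medians, bars quartiles, and n counts regions with a TPM. The medians are 13.6 and 17.2 in the 2 lowest classes and between 0.630 and 2.58 above 1%.

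At like CpG number the medians were again lower at higher methylation. At 10 to 14 CpGs the median TPM was 12.4 for regions below 5% methylation, 0.900 at 5 to below 20% and 0.325 at 20% and above (2709, 136 and 38 regions with a TPM). At 5 to 9 CpGs it was 7.89, 1.67 and 0.490, and at 2 to 4 CpGs 8.62, 2.50 and 1.93. Where the summit lay within 500 bp of the start of a protein-coding gene, the medians were 15.9, 2.49 and 2.32 TPM (10493, 574 and 164 regions). Genes of at least 1 TPM made up 87.6%, 63.1% and 62.2% of these, against 57.1% of all protein-coding genes with a TPM. No p is given, since the TPM and the methylation each come from 1 merged table.

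Some highly expressed genes had a methylated open region near a start. Mybl2, a cell cycle transcription factor, had 457 TPM and a region 283 bp downstream of its start (chr2:163075110-163075662, in an exon) with 27.9% of 104 reads methylated. Its fold was 7.53, 8.16, 7.20 and 6.73 in M-ATAC 1 to 4, 7.91 and 7.12 in M-ATAC-NC and 5.27 and 5.62 in ATAC, so that all 8 lists held it. The other 4 genes of this kind were Uba2, the SUMO-activating enzyme subunit (278 TPM, 41.4% of 29 reads), Usp7, a deubiquitinase (196 TPM, 20.7% of 58 reads), Eed, a Polycomb subunit (189.8 TPM, 21.1% of 71 reads) and Esd, an esterase (182 TPM, 22.2% of 99 reads). The summits lay 735, 138, -509 and 1113 bp from the nearest start, and a peak was present in 1, 0, 2 and 5 of the 8 lists. Their intervals reached down to 12.3% (Usp7) and 13.2% (Eed).

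The 5 promoters of highest fold all held repeated words. Gm24187, annotated as a miRNA gene (chr13:9834310-9834517), had the highest merged fold, 40.7, with folds of 19.5, 21, 16.7 and 21.5 in M-ATAC 1 to 4 and a peak in 1 of the 4 unconverted lists, ATAC 2 (14.9). Of its 31-base words 83.1% were repeated. Zfp959 (chr17:55891709-55892326, merged fold 35.5) had folds of 20.4, 25.5, 23.6 and 24.7 in M-ATAC, 15.8 and 17.9 in M-ATAC-NC and 11.2 and 15.0 in ATAC. Gm14443 (chr2:175175752-175176197, 34.7), Gm14401 (chr2:177073831-177074442, 30.0) and Tmsb15b1 (chrX:136976617-136977104, 29.9) had a peak in all 8 lists as well. Between 34.7% and 65.3% of the words of these 4 regions were repeated, and their methylation was 0.432% to 2.80%.

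The widest region, 2513 bp at the pseudogene Gm13340 (chr2:22587617-22590129, in an intron of Myo3a), had 54.1% of its words in the mitochondrial genome and a fold of 29.7 to 40.1 in the 8 lists. Its merged TPM of 10030.4 cannot be assigned to this copy. The other 4 of the 5 widest had no repeated word: 1190002N15Rik (1861 bp, 0.238% methylated), Tsen34, a tRNA splicing endonuclease subunit (1726 bp, 0.197%), Zfp524 (1573 bp, 0.145%) and Cox6b2, a cytochrome c oxidase subunit of testis (1573 bp, 0.951%). Each had a peak in all 8 lists.

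Expression of the genes gave a check on the cells. All 20 pluripotency factors were at 1 TPM or more, with a median of 146 TPM, against 57.1% of all protein-coding genes with a TPM. Of 12 feeder fibroblast markers 11 were too, with a median of 10.8 TPM and a range from 0.0800 (Lum) to 612 (Fn1, fibronectin). An open promoter without CTCF was present at 5 of these 12 genes (41.7%, 19.3 to 68.0%), against 58.0% of all protein-coding genes. The part of feeder cells in the TPM and M-ATAC values was not tested.

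Protein-coding genes with open promoters of this kind alone had a median of 12.6 TPM (quartiles 2.19 and 38.6), and 81.3% of them had 1 TPM or more. Genes with a CTCF-bound open promoter alone had 10.1 TPM and 77.6%, and genes with both kinds 14.1 TPM and 86.5%. Genes with no open region had a median of 0 and 11.5%, and 4220 of the 7484 with a TPM were listed at 0.

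Of 20 pluripotency genes 19 had such a promoter (95.0%, against 58.0% of all protein-coding genes), the exception being Dppa3, a germ cell and oocyte factor (44.2 TPM, no open region). The 29 regions at these genes were methylated in 0.391% of reads (0.302 to 0.507%) and none of the 25 with 5 cytosines reached 20%, against 2.58% of all open promoters without CTCF. Klf5 had the highest merged fold of the list, 19.2, with methylation of 0.170%, followed by Zfp42 (18.5, 0.391%), Klf2 (11.9, 0.124%) and Utf1 (11.9, 0.140%). Klf4 itself had a fold of 5.63 and 4 of 2063 reads methylated. Nanog (461 TPM) had a fold of 4.33 and a peak in no more than 1 M-ATAC list, and Pou5f1, which encodes OCT4 (657 TPM), had a CTCF-bound region and a weak region without CTCF (fold 3.32, 0 of 56 reads methylated).

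Genes of general cell functions had CpG-rich, open and unmethylated promoters. For housekeeping genes 20 of 22 had an open promoter without CTCF, for replication licensing factors 17 of 20, for proteasome subunits 33 of 39 and for mitochondrial ribosome proteins 63 of 78. Ribosomal proteins (62 of 82) and mitochondrial respiratory chain subunits (58 of 77) had CTCF-bound promoters at 22 and 17 genes. The shares ran from 75.3% to 90.9%, against 58.0% of all protein-coding genes, and pooled methylation was 0.257% (proteasome) to 0.537% (housekeeping). The 58.0% also counts 7727 genes with no open region, and of those with a TPM 11.5% had 1 TPM or more. The share among genes of at least 1 TPM is not given here, so that these lists are not set against genes of like expression. Median merged folds were 14.4 for replication licensing, 12.4 for the proteasome, 11.6 for the respiratory chain, 9.42 for mitochondrial ribosome proteins, 9.27 for ribosomal proteins and 8.17 for housekeeping genes, against 8.57 over all open promoters without CTCF. Mcm3, a subunit of the replicative helicase, had the highest fold of the licensing genes, 25, with 2 of 1100 reads methylated. In the ribosomal list 1 of 66 regions with 5 cytosines reached 20%, against 2.58% of all open promoters without CTCF. It was that of the retrogene Rpl10l (26.6%, 20.8 to 33.4%, 23 cytosines).

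Both sides of the methylation cycle were present. All 9 genes of the DNA methylation list had an open promoter without CTCF (interval 70.1 to 100%, against 58.0% of all protein-coding genes). The maintenance methyltransferase Dnmt1 had a fold of 13.6 and methylation of 0.262%, and its partner Uhrf1 13.5 and 0.498%. The oxidases Tet1, Tet2 and Tet3 had 15.7, 12.5 and 12.7, with methylation of 1.70%, 0.607% and 0.445%. The regions without CTCF at the de novo methyltransferases had lower folds, 3.16 at Dnmt3a and 5.81 at Dnmt3b, with 0 of 38 and 0 of 262 reads methylated. That of Dnmt3a had no peak in a single M-ATAC list. Dnmt3a also had a CTCF-bound open region at a start, whose fold is not given here. Tet3 had 1.86 TPM and the others of the list between 24.1 and 161 TPM.

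Lineage transcription factors showed open and unmethylated promoters, both at genes of low TPM and at expressed ones. Of 30 such genes 22 had an open promoter without CTCF (73.3%, 55.6 to 85.8%, against 58.0% of all protein-coding genes). The median over all 30 genes, with or without such a promoter, was 0.845 TPM, and 13 reached 1 TPM. The 35 regions had a median fold of 5.38 and a methylation of 0.488% (0.377 to 0.632%), and none of the 30 with 5 cytosines reached 20%, against 2.58% of all open promoters without CTCF. Pdx1, a pancreas factor, had 0.0900 TPM, a fold of 17.4 and a peak in 4 M-ATAC samples, with 8 of 227 reads methylated. Neurog1, a neural factor, had 0.410 TPM and 12.7, with 3 of 718 reads methylated, and Lhx2 had 0.980 TPM and 10.6, with 3 of 1554. These 3 are examples of low TPM. Other genes with an open promoter without CTCF were expressed, such as Gata4 (33.5 TPM), Neurod1 (21.2 TPM) and Eomes (10.5 TPM). The 8 genes of the list without such a promoter had a CTCF-bound region alone (Gata6) or no open region.

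Germline genes had the highest pooled methylation of the 14 lists other than olfactory receptors. Of 17 genes 10 had an open promoter without CTCF (58.8%, near the 58.0% of all protein-coding genes) and 7 had no open region. Pooled methylation was 4.53% (4.01 to 5.11%), against 0.619% over all open promoters without CTCF, and 3 of 11 regions reached 20%, against 2.58% of all open promoters without CTCF. Asz1, a piRNA pathway gene, was at 62.5% (51.0 to 72.8%) over 11 cytosines with 0.0400 TPM, and Mov10l1, a piRNA helicase, at 47.1% (36.8 to 57.6%) with 8.87 TPM. Slc25a31, a testis ADP/ATP carrier, was at 31.7% (23.4 to 41.3%) with 1.45 TPM, and Mael at 18.5% (13.8 to 24.4%) with 13.3 TPM. Sycp3 of the synaptonemal complex was at 12.7% (9.30 to 17.2%) with 56.3 TPM, and Ddx4 at 9.05% (6.0 to 13.4%) with 31.8 TPM. Of the 17 genes 14 were at 1 TPM or more, with a median of 7.97 TPM, against 57.1% of all protein-coding genes with a TPM. The values spread widely within the list: Stag3, a meiotic cohesin subunit, was at 0.330% of 3028 reads with a fold of 20.4, and Dazl at 1.25% of 1281 reads with 15.3.

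Single M-ATAC lists differed between these genes. Stag3 and Dazl had a peak in all 4 M-ATAC samples, Piwil2 (12.9% of 62 reads) in 3, Sycp3 in 2, Taf7l (3.25% of 246 reads), Mov10l1, Mael and Ddx4 in 1, and Asz1 and Slc25a31 in none. Btbd18, which is needed for piRNA expression in testis and is not in the list, had a fold of 4.8 and 5.90 in M-ATAC 3 and 4, 4.17 in M-ATAC-NC 1 and no peak in the other 5 lists.

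Families of clustered genes were counted as well. Of 365 Zfp zinc finger genes 287 had an open promoter without CTCF (78.6%, 74.1 to 82.5%, against 58.0% of all protein-coding genes). These regions had a median merged fold of 12.1, a median of 11 CpGs and a methylation of 0.472%. Of the 314 regions with 5 cytosines, 5 reached 20%, against 2.58% of all open promoters without CTCF. They were at Zfp521 (48.6%), Zfp985 (32%), Zfp872 (28.9%), Zfp961 (24.3%) and Zfp827 (22%). Core histone genes had such a promoter in 55 of 63 cases (87.3%, against 58.0% of all protein-coding genes). These had a median of 8 CpGs and a methylation of 0.287%, at a median of 0.720 TPM for the list. Of 1092 olfactory receptor genes 13 had one (1.19%, against 58.0% of all protein-coding genes), with a median of 2 CpGs. Their methylation was 12.9% (9.70 to 16.9%) over 49 cytosines.

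**Figure D5:**
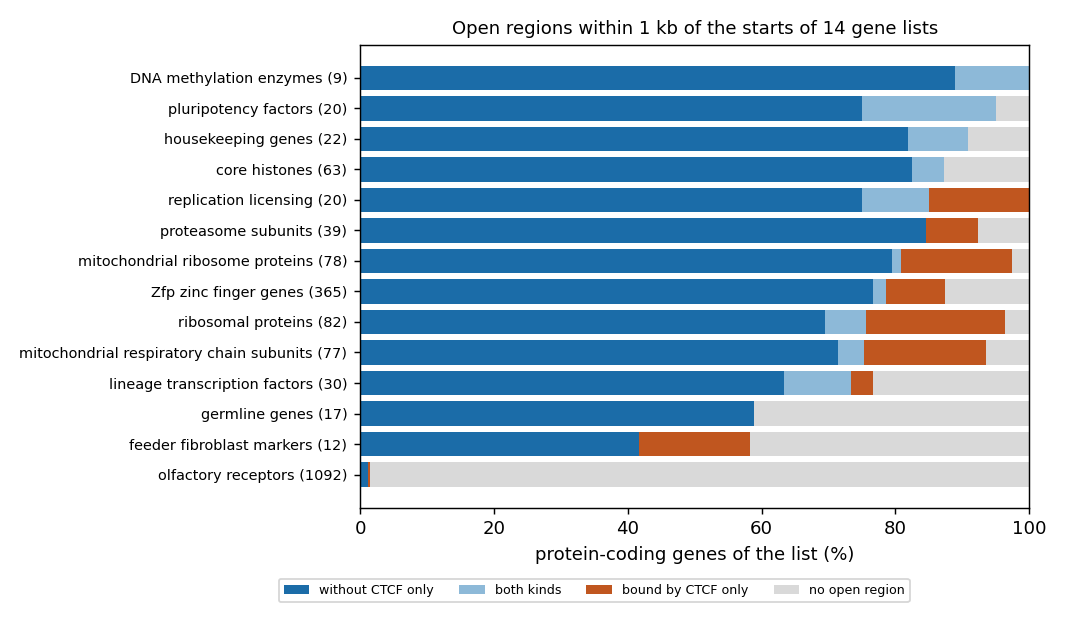
Share of the protein-coding genes of 14 lists (horizontal axis, %, number of genes in brackets) by the open regions within 1 kb of their starts. The share with an open promoter without CTCF, alone or with a CTCF-bound one, runs from 1.19% of olfactory receptors to 100% of DNA methylation enzymes.

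KLF4 lists were set beside these promoters, with a doubt: the lists of WT and R462A cells belong to samples titled M-ATAC, while their library names are those of KLF4 M-ChIP. The Klf4-/- lists belong to samples titled KLF4 ChIP. The study removed peaks seen in Klf4-/- cells to allow for a possible lack of specificity of the KLF4 antibody. KLF4 is a zinc finger factor of pluripotency that binds a GGGNGTGG core. The WT lists had peaks at 7.28% and 13.4% of the open promoters without CTCF, the Klf4-/- lists at 8.62% and 10.8% and the R462A lists at 0.127% and 0.282%. Over all merged regions the shares were 3.94% and 6.90% for WT, 8.15% and 12.4% for Klf4-/- and 0.184% and 0.270% for R462A. The WT and Klf4-/- values overlapped (difference 0.599 points, exact permutation test, p = 1.00, adjusted p = 1.00). Genotype and assay differ together in this comparison and cannot be told apart. The WT and R462A values did not overlap, and their difference was 10.1 points (exact permutation test, p = 0.333, the smallest possible, adjusted p = 0.381).

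A peak in both WT lists and in neither Klf4-/- list was found at 558 of the open promoters without CTCF (3.22%, 2.96 to 3.49%), at 3.58% of CTCF-bound promoters and at 0.963% of distal regions without CTCF, against 1.65% of all merged regions. These 558 promoters had a median merged M-ATAC fold of 12.2, a methylation of 0.40% and a median TPM of 17.4. At least 1 Klf4-/- list, from cells with no KLF4, had a peak at 13.3% of the open promoters without CTCF, at 16.0% of CTCF-bound promoters and at 14.7% of distal regions without CTCF.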

How the data were processed

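Peak lists came from the authors' alignments to mm10, made per the labels with Trim Galore 0.4.4, Bismark 0.18.1, Bowtie2 and SAMtools 1.3, followed by MACS peak calling per sample and on merged reads. The deposited lists give the fold enrichment over local background, a score, and -log10 p and q values. The deposited KLF4 lists were subsampled by the authors and give a p-value per peak. The deposited methylation table of merged M-ATAC gives methylated and unmethylated read counts and a percent per cytosine. The deposited RNA-seq values are TPM of merged samples, per the authors. The aligner of the unconverted aliquots and the RNA-seq annotation are not given in the sources used here, nor is which M-ATAC samples were merged.

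The 79943 rows of the merged M-ATAC list were reduced to distinct regions, and any overlap of 1 bp or more counted. Starts were 141767 transcript starts of GENCODE M21. Each cytosine was counted once with 5 or more reads, so that a single cytosine at the minimum moves in steps of 20%. Intervals are 95% Wilson intervals and cover counting error alone. Sequences came from RefSeq GRCm38.p6 (the same assembly as mm10), and 31-base words were counted over that genome. Motifs were searched in 200 bp windows. Groups were compared with exact permutation or sign-flip tests, two-sided, in Python 3.11.15 with scipy 1.17.1, checked on simulated data, and adjusted over 8 comparisons by Benjamini-Hochberg. Replicate numbers are names, and no source says that they mark shared cultures. Named regions were those of the 14 gene lists and, among regions with 5 or more cytosines, the 5 with the highest lower methylation bound, the 5 of highest fold, the 5 widest and the 5 genes of highest TPM at 20% methylation or more. The regions and lists were chosen with earlier results of these data known. Other windows, start sets, overlaps, coverage minimums and left-out samples were tried. The CTCF methylation table and the CTCF motif table were not used here.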

Additional observations from a re-analysis of the deposited data

Results flagged for a closer look

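In 2 results the M-ATAC lists differed, with all 8 lists taken as independent, from the unconverted lists (M-ATAC-NC and ATAC). The share of open promoters without CTCF that had a peak, minus that of CTCF-bound promoters, was -0.579 points ± 1.05 (SD, n = 4) in M-ATAC and 1.75 points ± 0.331 (SD, n = 4) in the unconverted lists. The difference was -2.33 points (exact permutation test, two-sided; p = 0.0286, which is the lowest value possible with 4 and 4 samples), and it was -2.10 against M-ATAC-NC and -2.56 against ATAC (exact permutation test, p = 0.133 for both). The share at open promoters minus that at distal regions, both without CTCF, was 21.4 points ± 3.87 (SD, n = 4) in M-ATAC and 29.5 points ± 1.19 (SD, n = 4) in the unconverted lists. The difference was -8.09 points (exact permutation test, p = 0.0286), and it was -7.21 against M-ATAC-NC and -8.97 against ATAC (exact permutation test, p = 0.133 for both). The unconverted lists pool 2 aliquots of M-ATAC with 2 Nextera samples, so that the samples of this test are not all independent. Against either group alone 0.133 is the lowest p possible. The M-ATAC lists are also not separate from the rule, since the regions come from a merged M-ATAC list. M-ATAC 3 and 4 had the smallest values of the second share difference, 17.8 and 18.3 points.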

How the results depend on the processing

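Over 34 settings, 126 of 154 values kept their direction and their side of an unadjusted p of 0.05, or moved by less than their interval. The share at open promoters without CTCF minus that at CTCF-bound promoters (0.586 points) turned negative with a window of 500 bp (-1.30), gene starts only (-1.68), protein-coding transcript starts only (-2.74) and with no peak in any of the 7 CTCF lists (-1.36). It passed the threshold with a window of 3 kb (4.51), 50% of the region inside (23.4), a -log10 q of 5 or more (3.39) and 50% of the region covered (1.33). The cause was not tested. The difference between WT and Klf4-/- lists turned to -1.14 with a window of 3 kb, -2.45 without WT 2 and -0.513 without Klf4-/- 1, and that between M-ATAC and ATAC to 0.199 without ATAC 2. Methylation (0.619%) was 0.565 with a window of 500 bp, 0.791 with 3 kb, 0.530 with gene starts, 0.473 with protein-coding starts, 0.590 with 50% of the region inside, 0.599 with a -log10 q of 5 or more, 0.735 and 0.443 with 1 and 10 reads, 0.558 with each row of the table and 0.882% as a mean of percentages. The median TPM of the genes (8.31, 95% interval 7.85 to 8.72) was 9.37, 5.47, 11.6, 8.81 and 9.38 with 500 bp, 3 kb, protein-coding starts, 50% inside and the q limit, and 18.2 for genes of at least 1 TPM.

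Leaving out 1 sample at a time gave -12.8 to -6.26 for M-ATAC against M-ATAC-NC, -8.88 to 0.199 against ATAC, 0.365 to 0.888 against CTCF-bound promoters, 24.7 to 26.5 against distal regions, 0.183 to 0.213 for the fold, -4.78 to -1.59 for CTCF M-ChIP-NC against ChIP, -2.45 to 3.65 for WT against Klf4-/- and 7.07 to 13.2 for WT against R462A. With replicate numbers 1 and 2 as a block the differences were -8.17, -2.97, -3.19, 0.599 and 10.1 points (exact sign-flip permutation test, smallest possible p = 0.5), and the block changed no call. With the M-ATAC and ATAC lists only, chosen after seeing the data, the 3 differences between kinds of region were 0.275 points, 24.4 points and 0.211 (exact sign-flip permutation test, adjusted p = 0.786, 0.125 and 0.125), so that the last 2 lost their call after adjustment. Methylation and TPM had no replicates, and the median of 10 reads per cytosine limits single cytosines.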
